A study of Mus musculus with 4 samples.

Results

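The genes of 32 collagen chains were followed in messenger RNA of whole mouse skin, and each of the 32 symbols matched a row of a table that holds 47725 genes. The members were taken by gene name and sorted into 10 fibrillar, 9 basement membrane, 3 FACIT and 10 other collagens. All mice were 17-week-old C57BL/6J. The floxed gene is Ppp6c, which encodes the catalytic subunit of protein phosphatase 6, and controls labelled PP6fl/fl carried it on both copies. The second group bears the label cKO, and the title of the series adds K5 to the same allele, taken here to stand for a keratin 5 promoter, which is active in basal keratinocytes. Collagen-producing dermal cells lie outside that lineage. Each group had 2 libraries, numbered 2 and 3.

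Collagens are secreted proteins of 3 chains wound into a triple helix. Types I and III build the fibrils of the dermis, and type V is built into their core and sets where fibrils start and how thick they grow. Type IV forms the network of basement membranes, type VII the anchoring fibrils that tie the epidermis to the dermis, and the FACITs (fibril-associated collagens with interrupted triple helices) coat fibril surfaces. In skin most of these chains are made by dermal fibroblasts, while type VII and part of type IV also come from keratinocytes.

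The deposited counts summed to 15837136 to 23407731 per library. Ppp6c itself stood at 57.8 and 61.8 CPM (counts scaled to library size with TMM factors) in control and at 62.1 and 50.1 CPM in cKO (log2 fold change -0.09 ± 0.16, edgeR, adjusted p = 0.81). Reads over all exons and all skin cells cannot tell whether the floxed exons were removed in keratinocytes. All 8 keratinocyte markers were detected, and they summed to 23030 and 21564 CPM in control and to 36473 and 43096 CPM in cKO. Both cKO libraries lay above both controls for Krt14, Krt1 and Krt10 and below them for Trp63, Dsg1a and Dsp, and the groups overlapped for Krt5 and Lor. None of the 8 passed the test described below, and their part in the collagen values was not tested. The 7 skeletal muscle markers summed to 7518 and 11661 CPM in control and to 1666 and 10307 CPM in cKO replicates 2 and 3. Of the hair shaft keratins, 8 summed to 235 and 62.9 CPM in control and to 1563 and 609.8 CPM in cKO, with replicate 2 the higher in both groups. The labels do not say that libraries came from separate animals, so the spread behind each p-value may be technical.

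Most collagen genes had higher levels in cKO skin, and of these Col5a1, Col5a2 and Col4a2 passed the test. Summed over the 32 genes, collagen stood at 8163 and 6504 CPM in control replicates 2 and 3 whereas cKO replicates 2 and 3 reached 24082 and 15674 CPM. The log2 fold change was positive for 25 members and negative for 7, and the median was 1.13, where all 17440 tested genes had a median of -0.0014. All 32 members passed the filter on low counts. Both cKO libraries exceeded both controls in 23 members (background 25.1% of tested genes) and were under both in 5 (background 27.7%), and the groups overlapped in 4. Because this is bulk tissue, more cells of a type and more RNA per cell cannot be told apart.

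In edgeR's quasi-likelihood test, which is meant wherever edgeR is named below, 3 members rose (Benjamini-Hochberg adjusted p under 0.05), a call that 0.740% of tested genes reached. None fell by that test, against 0.350% of tested genes. At an unadjusted p under 0.05 there were 17 members higher and 4 lower, where the share of all tested genes was 10.3% and 9.69%. DESeq2 called 17 members higher and 3 lower (6.44% and 4.81% of its genes), and limma voom called 4 higher and 0 lower (0.757% and 0.390%). With no filter on low counts edgeR called 9 members, where 3.17% of all genes were called. In each of 3 simulated runs of 2 against 2 libraries, 200 of 17440 genes were changed. There edgeR found 2% of the genes with a true factor of 2 and 49.3% of those with a factor of 4. Of all its calls in these runs 9.89% were false, more than the threshold of 0.05 aims at. Leaving out control replicate 2 or control replicate 3 gave 0 called members and 0 called genes in all, with 11 members higher and 3 lower, or 12 higher and 2 lower, at an unadjusted p under 0.05. It called 18 members without cKO replicate 2 and 10 without cKO replicate 3, the 3 called members among them both times, while the share of all tested genes called was 8.42% and 4.12%.

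**Figure D1:**
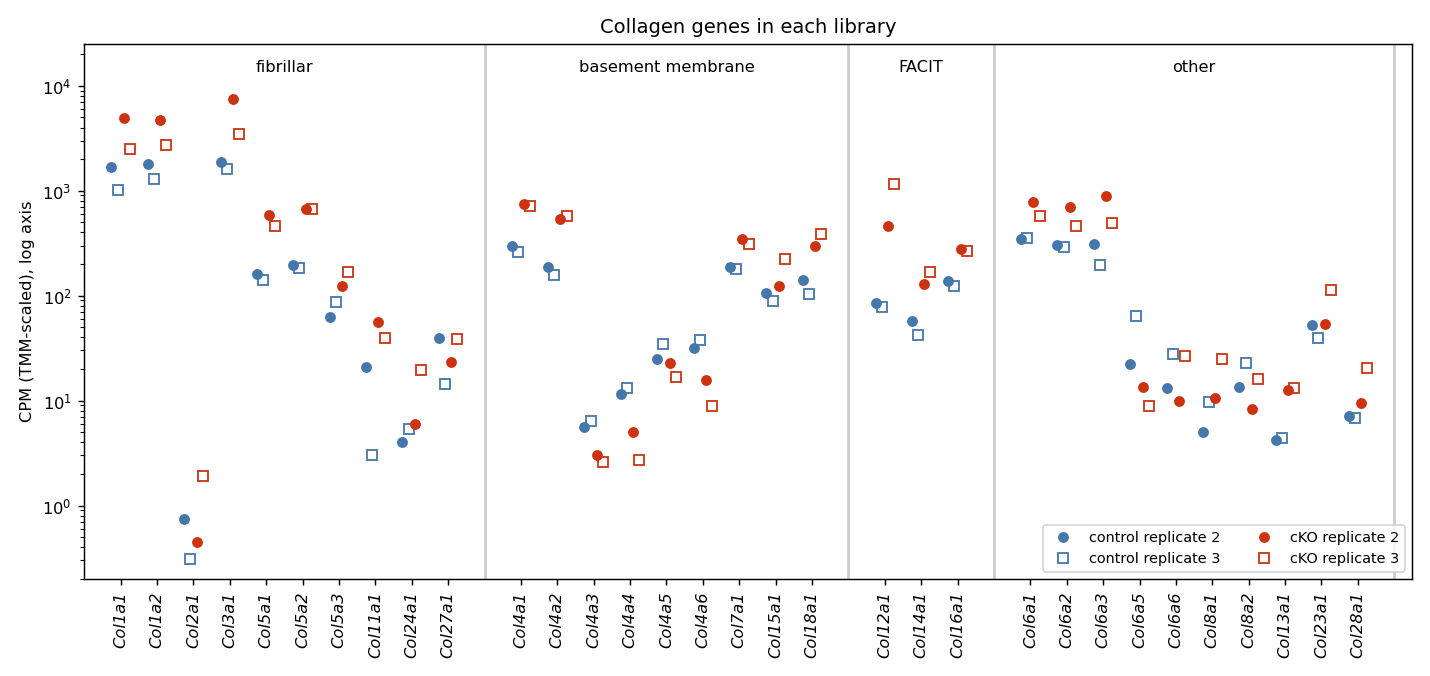
TMM-scaled CPM on a log axis for each of the 32 collagen genes in each of the 4 libraries, by class. For type V chains Col5a1 and Col5a2 the cKO libraries, at 458 to 675 CPM, sit well above the control libraries, at 142 to 194 CPM, while the order is the other way round for Col4a3 to Col4a6 and Col6a5.

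Among the fibrillar collagens 2 of 10 rose, 0 fell and 8 did not pass, all 10 had a positive log2 fold change, and their median was 1.45. At an unadjusted p under 0.05 there were 6 higher and 0 lower; DESeq2 also called 6 higher and 0 lower and limma voom 2 higher and 0 lower. The type I chains are the most abundant fibril proteins of skin. Col1a1 was counted at 1679 and 1025 CPM in control replicates 2 and 3 while cKO replicates 2 and 3 had 4932 and 2492 CPM. Its partner chain Col1a2 was at 1790 and 1296 CPM in control and at 4709 and 2724 CPM in cKO. Both genes had their lowest cKO library above their highest control library, but replicate 2 exceeded replicate 3 in both groups and the log2 fold changes, 1.46 ± 0.49 and 1.27 ± 0.41 (SE, n = 2 per group), missed the threshold (edgeR, adjusted p = 0.209 and 0.196). Col3a1, the chain of type III homotrimers that mix with type I, had 1865 and 1616 CPM in control and 7518 and 3472 CPM in cKO. Its groups did not overlap, and its log2 fold change was 1.66 ± 0.48 without passing (edgeR, adjusted p = 0.169).

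The type V chains were the evenest of the fibrillar genes. Col5a2 was at 194 and 183 CPM in control and at 675 CPM in both cKO libraries. It rose by 1.84 ± 0.16 on the log2 scale (SE, n = 2 per group, edgeR, adjusted p = 0.0429), a mean of 3.58 times the control level. Col5a1, the chain found in nearly all type V molecules, was at 160 and 142 CPM in control and at 587 and 458 CPM in cKO. It rose by 1.79 ± 0.20 (edgeR, adjusted p = 0.049), and in both genes each cKO library was over 3 times the control mean. In humans, mutations of COL5A1 and COL5A2 cause classical Ehlers-Danlos syndrome, a disorder of fragile, stretchy skin. The minor chain Col5a3 was at 62.9 and 86.6 CPM in control and at 125 and 168 CPM in cKO. Its difference of 0.97 ± 0.24 on the log2 scale missed the threshold (edgeR, adjusted p = 0.13). Each call of Col5a1 and Col5a2 was lost without control replicate 2 and without control replicate 3, where 0 genes passed, and was kept in the other 10 alternatives.

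Col3a1 and Col5a2 are neighbours with no protein-coding gene between them on chromosome 1 in the RefSeq annotation of GRCm38. The fold over the control mean was 4.32 and 2.0 for Col3a1 in cKO replicates 2 and 3, and 3.58 in both for Col5a2. The remaining fibrillar chains were low. Col11a1, a relative of the type V chains that is abundant in cartilage, had 20.8 and 3.04 CPM in control and 55.6 and 39.4 CPM in cKO, so the control libraries differed more from each other than the cKO libraries did. Acan, a cartilage marker, had 7.77 and 0.22 CPM in control and 9.48 and 5.49 CPM in cKO, also with control replicate 3 lowest. The 5 cartilage markers in the table, most of whose counts are Sox9, summed to 80.9 and 69.5 CPM in control and to 84.9 and 34.2 CPM in cKO, and their part in the Col11a1 and Col2a1 values was not tested. Col24a1 had 4.03 and 5.33 CPM in control and 6.04 and 19.6 CPM in cKO. Col27a1, a short-helix fibrillar chain, overlapped between groups, with a log2 fold change of 0.21 ± 0.55 that was negative without control replicate 3 (-0.33) and without cKO replicate 3 (-0.20). Col2a1, the main cartilage collagen, had 18 and 7 reads in control, 7 in cKO replicate 2 and 32 in cKO replicate 3, and its log2 fold change of 1.15 ± 0.87 became -0.25 without cKO replicate 3.

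**Figure D2:**
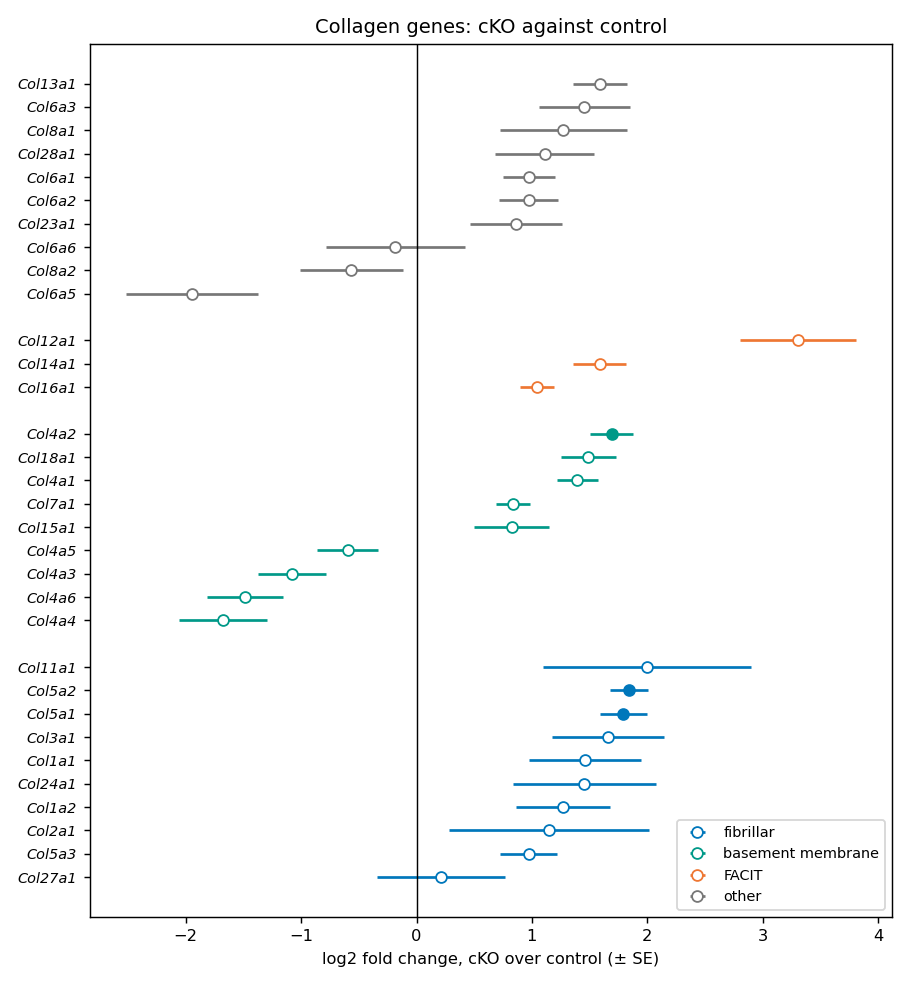
Log2 fold change of cKO over control with its SE for each collagen gene, by class, after edgeR's shrinkage. Filled points are the 3 genes that passed (Col5a2, Col5a1 and Col4a2), open points did not pass, and the type IV genes lie on both sides of 0.

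In the basement membrane class the 9 genes went apart. Both cKO libraries were above both controls in 5 and below them in 4 (background 25.1% and 27.7% of tested genes), with no overlapping gene. By the quasi-likelihood test 1 rose, 0 fell and 8 did not pass. At an unadjusted p under 0.05 there were 4 higher and 3 lower, DESeq2 called 4 higher and 2 lower, and limma voom 2 higher and 0 lower. The 6 type IV genes lie in 3 neighbouring pairs, Col4a1 with Col4a2, Col4a3 with Col4a4 and Col4a5 with Col4a6. Each pair is known to be read in opposite directions from starts that lie close together. The windows from 250 bases before to 50 after the RefSeq starts of Col4a1 and Col4a2 (GRCm38.p6, chr8:11312777-11313076 on the minus strand and chr8:11312555-11312854 on the plus strand) share 78 bases. They are shown because this is the one pair of type IV genes with higher cKO levels. Each is printed 5′ to 3′ on its gene's own strand, and capitals mark the CCAAT box and the GC box GGGCGG on either strand.
Col4a1: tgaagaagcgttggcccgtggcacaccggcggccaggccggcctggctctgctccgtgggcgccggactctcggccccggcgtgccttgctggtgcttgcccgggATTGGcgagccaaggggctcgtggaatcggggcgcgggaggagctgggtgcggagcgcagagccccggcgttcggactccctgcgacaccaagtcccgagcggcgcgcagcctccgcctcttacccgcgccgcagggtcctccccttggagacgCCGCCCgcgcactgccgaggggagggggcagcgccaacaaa
Col4a2: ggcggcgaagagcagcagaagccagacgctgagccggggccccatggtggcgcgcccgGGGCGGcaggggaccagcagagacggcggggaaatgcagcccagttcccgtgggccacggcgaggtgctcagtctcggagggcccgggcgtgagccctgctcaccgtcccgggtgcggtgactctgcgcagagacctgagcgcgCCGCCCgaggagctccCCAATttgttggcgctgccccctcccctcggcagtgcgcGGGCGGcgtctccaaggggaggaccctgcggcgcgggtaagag

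Both windows hold 1 CCAAT box, and the GC box occurs 1 time in the Col4a1 window and 3 times in that of Col4a2. The GC box of Col4a1 lies in the shared bases and is the same site as 1 of the 3 in Col4a2. The pair has no TATAAA, and no 2 marked motifs overlap within a window. Of 32851 RefSeq windows of this length, 37.4% hold CCAAT on either strand, 35.7% GGGCGG and 13.6% TATAAA. Among the 28 windows of the 26 collagen genes found there, 9 hold CCAAT, 19 GGGCGG and 2 TATAAA.

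Col4a1 and Col4a2, which encode the chains of the common type IV network, both had higher levels in cKO. Col4a2 was at 188 and 156 CPM in control and at 532 and 577 CPM in cKO, and rose by 1.69 ± 0.18 on the log2 scale (SE, n = 2 per group, edgeR, adjusted p = 0.0476). Col4a1 was at 297 and 258 CPM in control and at 747 and 713 CPM in cKO. Its log2 fold change of 1.39 ± 0.18 lay just outside the threshold (edgeR, adjusted p = 0.054), and limma voom called it. The call of Col4a2 was lost without control replicate 2 and without control replicate 3, where 0 genes passed.

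The other pairs lay lower in cKO without passing. Col4a3 was at 5.57 and 6.43 CPM in control and at 3.05 and 2.63 CPM in cKO, and Col4a4 at 11.4 and 13.1 CPM in control and at 4.96 and 2.69 CPM in cKO. In the kidney and a few other organs these chains join Col4a5 in a separate network. The X-linked gene Col4a6 was at 31.5 and 37.6 CPM in control and at 15.8 and 8.89 CPM in cKO, and its neighbour Col4a5 at 24.7 and 34.7 CPM against 22.6 and 16.7 CPM. These 2 chains assemble in the basement membrane under the epidermis and around smooth muscle. Log2 fold changes were -1.08 ± 0.29 for Col4a3, -1.68 ± 0.38 for Col4a4, -0.60 ± 0.27 for Col4a5 and -1.49 ± 0.33 for Col4a6 (edgeR, adjusted p = 0.15, 0.111, 0.316 and 0.107). The 6 smooth muscle and myofibroblast markers, which include pericyte Rgs5, summed to 853 and 950 CPM in control and 589 and 1445 CPM in cKO. Of these sums Des held 407 and 531 CPM in control and 173 and 788 CPM in cKO. Both cKO libraries lay below both controls for Cnn1 and Myh11 and above them for Rgs5 (background 27.7% and 25.1% of tested genes). The groups overlapped for Acta2, Tagln and Des. The part of such cells in the type IV values was not tested.

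Col7a1, the anchoring fibril gene, was at 188 and 178 CPM in control and at 345 and 310 CPM in cKO, higher by 0.84 ± 0.15 on the log2 scale (edgeR, adjusted p = 0.0814). The groups were well apart, but the change was under a factor of 2. Col18a1, whose protein releases the fragment endostatin, was at 140 and 103 CPM in control and at 298 and 384 CPM in cKO (log2 fold change 1.49 ± 0.24, edgeR, adjusted p = 0.0714). Its relative Col15a1 was at 107 and 88.4 CPM in control and at 123 and 223 CPM in cKO. Neither multiplexin passed, and cKO replicate 3 was the higher library for both. All 8 endothelial markers had positive log2 fold changes without passing, and summed to 372 and 352 CPM in control and to 505 and 834 CPM in cKO replicates 2 and 3. Their part in the type IV, XV and XVIII values was not tested.

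The 3 FACIT genes all had higher levels in cKO with no overlap between groups (background 25.1% of tested genes), and 0 passed in the quasi-likelihood test. All 3 were higher at an unadjusted p under 0.05, DESeq2 called 3 higher, and limma voom 0. With no filter on low counts all 3 passed in edgeR, as they did without cKO replicate 2, and 2 passed without cKO replicate 3. Col12a1, which encodes a fibril-surface collagen of stretched tissues such as tendon and skin, had the largest positive log2 fold change of the 32 genes. It was at 85.5 and 78.7 CPM in control while cKO replicates 2 and 3 had 464 and 1156 CPM. The control libraries were alike and the cKO libraries differed widely, and the log2 fold change of 3.30 ± 0.50 had an adjusted p of 0.0642 (edgeR). It passed in 5 of the 12 alternatives. Col14a1, a related FACIT, was at 56.8 and 41.9 CPM in control and at 129 and 167 CPM in cKO (log2 fold change 1.59 ± 0.23). Col16a1, also made by keratinocytes, was at 139 and 124 CPM in control and at 275 and 267 CPM in cKO (1.04 ± 0.14). Both were close to the threshold (edgeR, adjusted p = 0.0596 and 0.0577).

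Of the other 10 collagens 0 passed in the quasi-likelihood test, 7 had positive and 3 negative log2 fold changes, and the median was 0.97. At an unadjusted p under 0.05 there were 4 higher and 1 lower, DESeq2 also called 4 and 1, and limma voom 0. With no filter on low counts 1 passed in edgeR, and without cKO replicate 2 or cKO replicate 3 there were 4 or 2. Type VI makes beaded microfilaments around cells from the chains of Col6a1, Col6a2 and Col6a3. Col6a1 was at 344 and 352 CPM in control and at 788 and 576 CPM in cKO, and Col6a2, its neighbour on chromosome 10, at 301 and 290 CPM against 697 and 460.4 CPM. Col6a3 was at 309 and 195 CPM in control and at 885 and 496 CPM in cKO. The 3 genes did not overlap between groups, and their log2 fold changes were 0.97 ± 0.22, 0.97 ± 0.26 and 1.45 ± 0.40. Their adjusted p was 0.113, 0.141 and 0.15 (edgeR).

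The alternative type VI chains Col6a5 and Col6a6 went differently. Col6a5 was at 22.5 and 63.6 CPM in control and at 13.6 and 8.83 CPM in cKO, the lowest log2 fold change of the 32 genes at -1.94 ± 0.57 (edgeR, adjusted p = 0.172). The control libraries differed from each other by a larger factor than the lower control and the higher cKO library. Col6a6, the neighbour of Col6a5 on chromosome 9, was at 13.3 and 28.1 CPM in control and at 9.93 and 26.4 CPM in cKO, with overlapping groups. Its log2 fold change of -0.18 ± 0.60 was positive without control replicate 3 (0.47) and without cKO replicate 2 (0.35).

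Col13a1, a transmembrane collagen of cell adhesions, was low and even, at 4.2 and 4.41 CPM in control and at 12.7 and 13.3 CPM in cKO. Its log2 fold change was 1.59 ± 0.23 (edgeR, adjusted p = 0.0617). The other transmembrane chain among the 32 members, Col23a1, was at 52.5 and 39.6 CPM in control and at 54.1 and 114 CPM in cKO. Its cKO replicate 2 thus lay barely above control replicate 2. Col8a1, a short-chain collagen of vessel walls, had 5.03 and 9.65 CPM in control and 10.6 and 24.8 CPM in cKO, and its partner Col8a2 had 13.3 and 22.9 CPM against 8.34 and 16.2 CPM. Col8a2 overlapped between groups and Col8a1 did not. Col28a1, a collagen of peripheral nerve, had 7.06 and 6.79 CPM in control and 9.42 and 20.5 CPM in cKO. The 5 Schwann cell markers summed to 280 and 303 CPM in control and to 134 and 318 CPM in cKO, and their part in the Col28a1 values was not tested.

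The cKO libraries differed in which chains stood highest. All 6 main chains of types I, III and VI were higher in cKO replicate 2 than in cKO replicate 3. For Col1a1 the fold over the control mean was 3.65 in cKO replicate 2 and 1.84 in replicate 3, and for Col6a3 it was 3.51 and 1.96. Col12a1 went the other way, at 5.65 and 14.1 times the control mean, as did Col24a1 at 1.29 and 4.18 times. Over all 32 members replicate 2 was the higher cKO library in 16, against 9103 of all 17440 tested genes. Among the controls replicate 2 was the higher library for 20 members. The hair shaft markers were also higher in replicate 2 in both groups, skeletal muscle markers were lower there, and 10 fibroblast markers summed to 2930 and 3549 CPM in control and 3453 and 4963 CPM in cKO replicates 2 and 3. Most of the counts in the fibroblast sum are Dcn and Vim, whose groups overlapped, as did those of Dpp4. Both cKO libraries lay above both controls for Pdgfra, Pdgfrb, Thy1, Twist2, Prrx1, Fap and Lum (background 25.1% of tested genes). Their mean fold over control ran from 1.5 for Thy1 to 3.2 for Pdgfra, against 1.17 for Dcn, 1.07 for Vim and 0.89 for Dpp4. Of those 10 markers, 9 had a positive log2 fold change, none was at 0, and their part in the collagen values was not tested.

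**Figure D3:**
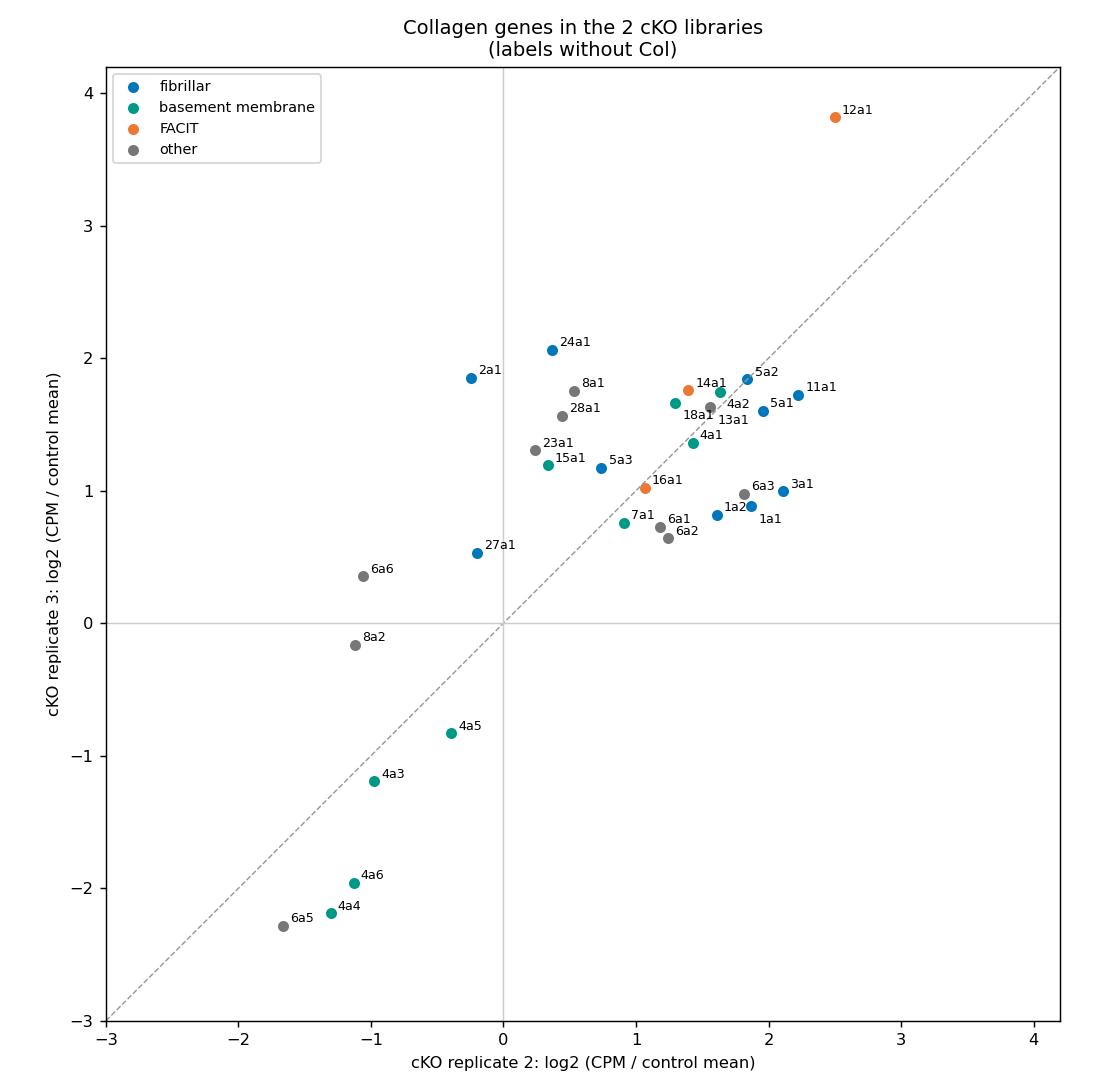
Level of each collagen gene in the 2 cKO libraries, as log2 of its CPM over the control mean, with replicate 2 on the horizontal and replicate 3 on the vertical axis and the line of equal values dashed. Types I, III and VI main chains lie below the line, Col12a1 and Col24a1 above it, and Col5a2, Col16a1 and Col13a1 close to it.

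Per transcript length, in the deposited FPKM, the most abundant of the 32 members were Col1a1, Col3a1, Col1a2, Col6a1 and Col4a1. This order by group mean was the same in both groups. Col17a1, a collagen gene outside the 32, had 227 and 243 FPKM in control, above the Col1a1 mean there, and 112 and 70.2 FPKM in cKO. Col1a1 had 211 ± 73.7 FPKM in control and 555 ± 270 FPKM in cKO (mean ± SD, n = 2), and Col3a1 181 ± 19.8 and 549.8 ± 297 FPKM, so these neighbours in the order did not differ beyond their spread. Col12a1 moved from place 18 of 32 in control to place 11 in cKO, and Col6a5 from place 19 to place 29. Types I and III together made 60.8% and 54.6% of the FPKM summed over the 32 members in control replicates 2 and 3. They made 67.9% and 52.2% of it in cKO, with overlapping groups. The FACIT share of the same sum was 3.54% and 3.79% in control and 3.21% and 7.63% in cKO, also overlapping. Col17a1 is not in this sum, so the shares and their overlap hold for the 32 members alone.

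Chains that join in one molecule can be compared as ratios of FPKM within a library. Of 9 ratios, 7 overlapped between the groups. With 2 against 2 libraries an exact permutation test cannot go below p = 0.333, and no other test of the ratios was run. The ratio of Col1a2 to Col1a1, whose protein chains combine in type I, was 0.563 and 0.668 in control replicates 2 and 3 and 0.504 and 0.577 in cKO. Col3a1 over Col1a1 was 0.742 and 1.05 in control and 1.02 and 0.931 in cKO. Col5a2 over Col5a1 stayed between 1.02 and 1.31 in all 4 libraries, and Col6a2 over Col6a1 between 0.421 and 0.465. The type V to type I ratio of Col5a2 over Col1a1 was 0.079 and 0.122 in control and 0.0937 and 0.185 in cKO, with overlapping groups. The groups were separate for Col5a3 over Col5a1, at 0.491 and 0.759 in control and 0.265 and 0.458 in cKO, and for Col4a2 over Col4a1, at 0.711 and 0.678 in control and 0.802 and 0.911 in cKO.

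**Figure D4:**
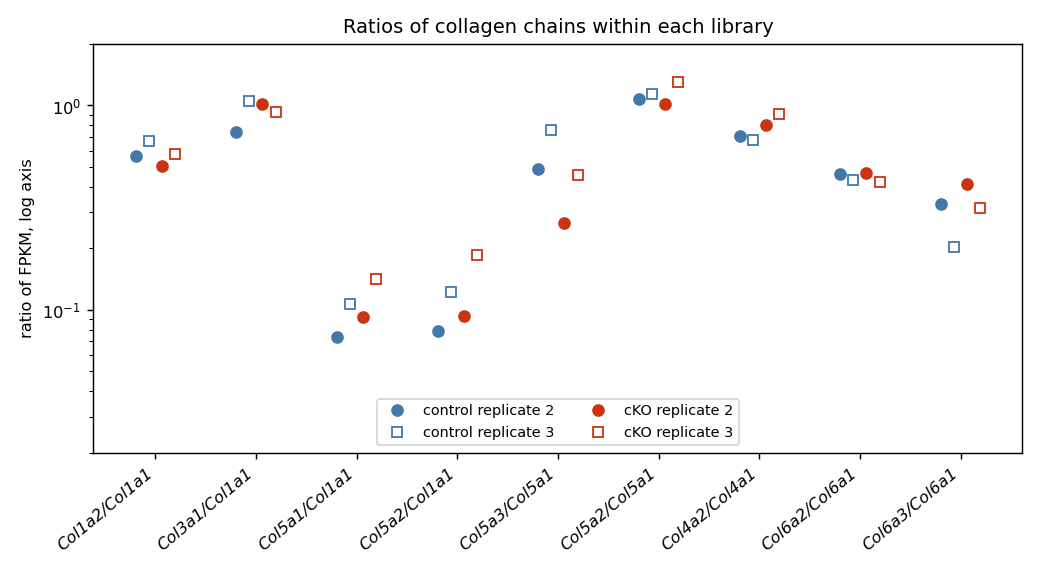
Ratio of FPKM between collagen chains within each of the 4 libraries, on a log axis. The cKO points lie below the control points for Col5a3/Col5a1 and above them for Col4a2/Col4a1, and the groups overlap for the other 7 ratios.

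Genes that act on collagen were read from 8 lists with 115 entries, of which 106 were tested. Over all 17440 tested genes both cKO libraries lay above both controls in 25.1% and below them in 27.7%, and 8222 genes overlapped. These shares and those in brackets are the background for each list below. In the quasi-likelihood test 8 rose, 0 fell and 98 did not pass (0.740% of all tested genes rose and 0.350% fell). At an unadjusted p under 0.05 there were 51 higher and 4 lower (10.3% and 9.69%). DESeq2 called 38 higher and 2 lower (6.44% and 4.81% of its genes), and limma voom 7 higher and 0 lower (0.757% and 0.390%). Without control replicate 2 or control replicate 3 the count was 0, with 30 and 33 higher at an unadjusted p under 0.05. It was 37 without cKO replicate 2 and 19 without cKO replicate 3.

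Cross-linking and propeptide removal held the largest number of calls, 3 of 12 tested genes. Lox, lysyl oxidase, which starts the covalent cross-links of fibrils, was at 44.3 and 55.7 CPM in control and at 199 and 181 CPM in cKO. It rose by 1.92 ± 0.17 on the log2 scale (SE, n = 2 per group, edgeR, adjusted p = 0.0429). Its relative Loxl1 rose by 1.94 ± 0.21, from 37.1 ± 2.02 to 143 ± 33.1 CPM (SD, n = 2), and Adamts2, the protease that removes the amino-terminal propeptides of fibrillar procollagens, by 1.21 ± 0.13, from 105 ± 0.0086 to 244 ± 13.5 CPM. Both cKO libraries lay above both controls in 10 of the 12 genes and below them in 2 (background 25.1% and 27.7% of tested genes).

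Of 21 modifying enzymes and chaperones of the endoplasmic reticulum, 1 rose and 20 did not pass. At an unadjusted p under 0.05, 13 of them were higher and 1 lower. Fkbp10, a prolyl isomerase needed for lysine hydroxylation of collagen, rose from 17.2 ± 1.07 to 48.6 ± 3.81 CPM (log2 fold change 1.5 ± 0.16). P3h1, a prolyl 3-hydroxylase, was higher by 1.28 ± 0.20 on the log2 scale without passing. P4ha3, a catalytic chain of prolyl 4-hydroxylase, was at 0.25 and 0.13 CPM in control and at 4.45 and 19.3 CPM in cKO, without passing (edgeR, adjusted p = 0.0743).

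Among 16 basement membrane partners Nid2, a nidogen that links laminin to type IV collagen, rose from 19.7 ± 1.67 to 53.6 ± 2.14 CPM (SD, n = 2), by 1.44 ± 0.15 on the log2 scale, and 15 did not pass. Lamb1, a laminin chain, and Nid1 had log2 fold changes of 1.31 ± 0.18 and 1.06 ± 0.16. Among 9 collagen receptors Mrc2, which takes up collagen for breakdown inside the cell, rose from 38.8 ± 3.20 to 90.02 ± 3.34 CPM, by 1.21 ± 0.14, and 8 did not pass. The integrin chain Itgb1 had 0.76 ± 0.15 and the inhibitory receptor Lair1 had 1.43 ± 0.31. Of the 12 fibril-associated proteoglycans and adhesion proteins 0 passed, 3 were higher at an unadjusted p under 0.05, DESeq2 called 3 higher and limma voom 0, and 8 overlapped between groups. Bgn, biglycan, had a log2 fold change of 1.69 ± 0.26, keratocan (Kera) of 1.86 ± 0.38 and asporin (Aspn) of 0.72 ± 0.19.

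Of 10 tested collagen breakdown genes, 2 rose and 8 did not pass, and both cKO libraries exceeded both controls in 8 (background 25.1%). Mmp8, the collagenase stored by neutrophils, was at 0.21 and 0.22 CPM in control and at 20.6 and 8.23 CPM in cKO, and rose by 6.03 ± 0.67 on the log2 scale (edgeR, adjusted p = 0.0476). Timp1, an inhibitor of metalloproteinases, rose from 4.90 ± 1.76 to 41.3 ± 1.31 CPM (SD, n = 2). Mmp14, a membrane-bound collagenase, had a log2 fold change of 1.28 ± 0.17 (edgeR, adjusted p = 0.0546). The 8 neutrophil and macrophage markers summed to 272 and 375 CPM in control and to 1834 and 1514 CPM in cKO. Of the cKO sums, the called genes S100a8 and S100a9 held 354 and 858 CPM in replicate 2 and 245 and 509 CPM in replicate 3. Their mean folds over control were 155 and 179. The others had 12.6 (Csf3r), 2.55 (C1qa), 2.50 (C1qb), 2.04 (Csf1r), 1.60 (Cd68) and 0.95 (Adgre1, overlapping groups). The part of these markers in the Mmp8 values was not tested.

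Of the 18 genes of TGF-beta signalling, a pathway known to induce collagen genes in fibroblasts, 0 passed in edgeR and in limma voom. DESeq2 called 4 higher, 5 were higher and 0 lower at an unadjusted p under 0.05, and 11 overlapped between groups. Of the 18, 14 had a positive log2 fold change and 4 a negative one. Skil, a feedback inhibitor, had a log2 fold change of 0.99 ± 0.14 against 0.83 ± 0.14 for the receptor gene Tgfbr1. Of 8 tested collagen genes outside the 32, 0 passed in edgeR and limma voom, DESeq2 called 1 lower, and 1 was higher and 1 lower at an unadjusted p under 0.05. Col17a1, the transmembrane collagen of keratinocyte hemidesmosomes, was at 1271 and 1379 CPM in control and at 649 and 422 CPM in cKO, with a log2 fold change of -1.31 ± 0.29 (edgeR, adjusted p = 0.107). Col25a1 and Col6a4 were below 4 CPM in every library.

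**Figure D5:**
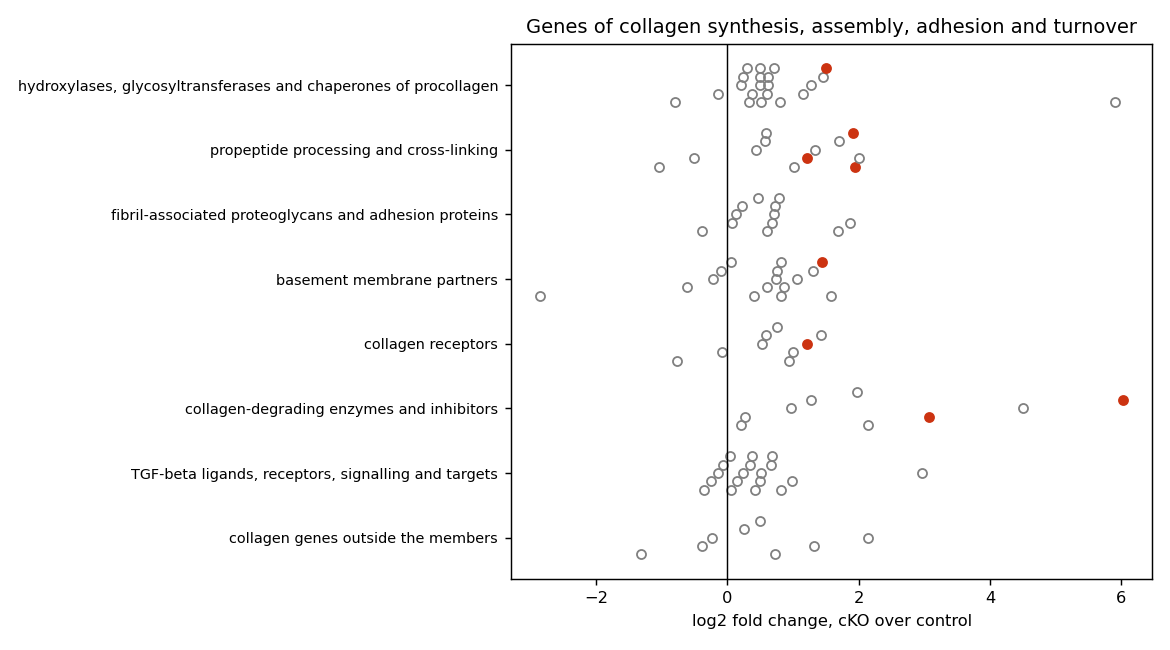
Log2 fold change of cKO over control for the tested genes of 8 lists around collagen, with the 8 genes that rose filled and the others open. Mmp1b, which had 0 counts in control, is left out because its fold change has no interpretable size, and points are shifted vertically for legibility.

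The authors' deposited table lists 15 of the collagen genes as higher and 3 as lower at a false discovery rate under 0.05, against 1.96% and 1.43% of its 47725 genes. Many of those genes are too low to pass the filter on low counts, which all 32 members passed. Of the 17440 genes that passed it, 1539 were under that rate in either direction. The authors' deposited table gives a log2 fold change of 3.23 for Col12a1, 1.77 for Col5a2 and 1.71 for Col5a1, and of -1.91 for Col6a5, -1.52 for Col4a4 and -1.5 for Col4a6.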

How the data were processed

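Oligo(dT)-selected RNA of skin was sequenced as TruSeq libraries, per the labels' protocols, and 4 libraries were analysed, 2 per genotype. Titles gave groups and replicate numbers, and Ctr columns were taken as the floxed samples because the titles hold no group besides these and cKO. The deposited table holds expected counts, which the authors made with RSEM per the submitters' processing notes and which are all whole numbers, and the authors' FPKM for each library, per the file headers. Its log2 fold changes, p-values and false discovery rates are the authors' own, with edgeR named in the notes. The notes name the build mm8; aligner, annotation release and strandedness were each not given in the sources used here. Reads of overlapping genes on opposite strands therefore cannot be told apart. Empty lines, 4 in all, were not analysed here, and neither were 2 markers, Krt85 and Snorc, that matched no row.

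Genes were filtered with filterByExpr, scaled with TMM and tested with edgeR 4.0.16 (quasi-likelihood, R 4.3.3, no covariate), with Benjamini-Hochberg adjustment over all 17440 genes. SE is the unshrunken absolute log2 fold change over the square root of the F statistic, while printed fold changes are shrunken. DESeq2 1.42.0, limma 3.58.1 on voom weights or on log2(FPKM + 0.1) or log2(FPKM + 1), other scalings, no filter, a replicate block and leaving out each library were alternatives. The 2 libraries of each group were not copies of one another (chi-square per gene of their counts 26.3 in control, 97.6 in cKO). Tests were checked on simulated counts of 17440 genes, where 9.89% of calls were false. Members and lists were chosen with earlier results of these data known. All 32 collagens are named, and of each partner list the called genes or, with fewer than 3 called, the 3 with the smallest p, of which 1 is not reported here; other genes named were chosen after their values were seen. Promoter windows are RefSeq's on GRCm38.p6, a later build than the authors', used for 26 of the 32 genes by symbol.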

Additional observations from a re-analysis of the deposited data

How the results depend on the processing

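Besides the quasi-likelihood test, which called 190 genes, 3 collagens and 8 partner genes, 12 alternatives were run. With median-of-ratios factors, library size alone or limma voom these counts stayed within a factor of 1.5. With no filter on low counts they were 883, 9 and 27; with DESeq2 1886, 20 and 40. On log2(FPKM + 0.1) 295 genes were called, and on log2(FPKM + 1) 383, where the median log2 fold change of the collagens was 0.85 in place of 1.13. Leaving out 1 library gave 0 to 1469 genes, 0 to 18 collagens and 0 to 37 partner genes, and a collagen median from 0.99 to 1.14; the counts of 0 came without control replicate 2 and without control replicate 3, and a lone library is assumed to vary like the other group. With the replicate number as a block the counts were 1177 (6.75% of genes), 12 and 28, with 3 of 10 fibrillar, 3 of 9 basement membrane, 3 of 3 FACIT and 3 of 10 other collagens called; same-numbered libraries had correlated deviations from their group means (0.414), but the labels do not say that numbers mark a shared litter or day. The 3 called collagens were kept in every alternative except those without a control library. Directions turned for Col27a1 (-0.33 without control replicate 3, -0.20 without cKO replicate 3, highest 1.12), Col6a6 (0.47 without control replicate 3, 0.35 without cKO replicate 2, lowest -1.06) and Col2a1 (-0.25 without cKO replicate 3, highest 1.92). Among the log2 differences of chain ratios, recomputed without each library after the data were seen, Col3a1/Col1a1 ran from -0.11 without control replicate 2 to 0.39, Col5a2/Col1a1 and Col5a2/Col5a1 from -0.10 and -0.12 without cKO replicate 3 to 0.88 and 0.24, and Col6a2/Col6a1 from -0.086 to 0.031 without control replicate 2 and 0.059 without cKO replicate 3. The causes were not tested. A collagen gene that did not pass is not shown to be unchanged.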
